A study of Mus musculus with 30 samples.

Results

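The genes described here are 9 core genes of non-homologous end joining, Polm, Poll, Lig4, Xrcc4, Nhej1, Xrcc5, Xrcc6, Prkdc and Dclre1c, out of 24459 genes in the RNA count tables. They were taken by name from the tables of 18 RNA libraries, and all 9 passed the filter on low counts in every comparison. Non-homologous end joining rejoins double-strand breaks without a template. The Ku heterodimer holds the broken ends, the kinase DNA-PKcs and the nuclease Artemis prepare them, X-family polymerases fill gaps, and DNA ligase IV with its partners seals them. In developing B cells the same pathway joins the antibody gene segments cut by the RAG recombinase, at the heavy chain locus first and at the light chain loci in pre-B cells.

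The mice were C57BL/6 and carried the G158R substitution of Aiolos, a zinc finger transcription factor of lymphoid cells encoded by Ikzf3, on no allele (Ikzf3+/+, WT), 1 allele (Ikzf3+/m, het) or both alleles (Ikzf3m/m, homo). RNA came from bone marrow cells sorted as pre-pro B cells (B220, AA4.1 and CD43 positive, IgM and CD24 negative) or as pre-B cells (B220, AA4.1 and CD24 positive, IgM and CD43 negative), with 3 libraries in each of the 6 groups. Lists of Ikaros and Aiolos binding regions came from 8 chromatin immunoprecipitation libraries of WT and homo pre-B cells, which were cultured, and thymocytes, 1 per antibody, genotype and cell type. The ages of the mice and whether replicate libraries came from separate mice are not stated in the labels, so p-values measure the spread between these libraries.

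Gene counts ran from 1888871 in homo pre-B replicate 3, the shallowest library, to 9048055. WT pre-pro B libraries held 5443344 to 6492192 and homo pre-pro B libraries 8592557 to 9048055, so depth moved with genotype there. Libraries with more counts of the Y-linked gene Ddx3y than of Xist were taken as XY. By this rule 6 of the 18 libraries were XY, none of them WT, 1 in each het and 2 in each homo group. Among the sort markers, Cd93 and Cd24a had higher mean levels in pre-B than in pre-pro B cells of each genotype (WT Cd24a at 330 ± 12.2 against 73.7 ± 13.1 in library-scaled counts, CPM, SD, n = 3) and Spn, which encodes CD43, had a lower one (159 ± 1.54 against 430 ± 14.6). The 10 plasmacytoid dendritic cell markers summed to 6050 to 6820 CPM in WT pre-pro B cells and to 1090 to 1180 in WT pre-B cells, and Siglech among them fell from 695 ± 58.6 to 0.327 ± 0.15. Bulk RNA cannot tell fewer cells of a type from less RNA per cell, and the part of other cell types in the stage differences below was not tested.

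Promoter sequence is shown for Polm, the gene with the largest genotype difference of the 9, and for Lig4 and Xrcc6, whose start sites lay inside called Ikaros regions. Each run is the 250 bases before a RefSeq start site (GRCm38.p6), all on the strand of the gene, and capitals mark GGGAA or its reverse complement TTCCC, the core that Ikaros family zinc fingers recognise.
Polm, chr11:5838017-5838266, minus strand: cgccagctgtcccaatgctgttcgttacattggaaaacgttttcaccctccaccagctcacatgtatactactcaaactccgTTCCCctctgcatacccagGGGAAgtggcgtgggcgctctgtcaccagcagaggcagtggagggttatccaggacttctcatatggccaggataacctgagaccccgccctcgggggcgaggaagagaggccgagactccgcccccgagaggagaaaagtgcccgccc
Lig4, chr8:9977681-9977930, minus strand: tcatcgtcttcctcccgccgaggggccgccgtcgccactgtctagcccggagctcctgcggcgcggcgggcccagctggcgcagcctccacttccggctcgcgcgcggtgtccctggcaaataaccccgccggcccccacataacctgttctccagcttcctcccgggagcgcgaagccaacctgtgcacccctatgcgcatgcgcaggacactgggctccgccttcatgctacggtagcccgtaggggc
Xrcc6, chr15:82016119-82016368, plus strand: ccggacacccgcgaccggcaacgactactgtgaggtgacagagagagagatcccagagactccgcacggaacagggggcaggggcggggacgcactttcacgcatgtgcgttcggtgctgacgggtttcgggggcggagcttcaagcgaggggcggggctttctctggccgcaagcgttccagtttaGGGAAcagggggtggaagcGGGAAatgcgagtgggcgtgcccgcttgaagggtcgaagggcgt
Polm and Xrcc6 each held 2 matches in this window and the Lig4 window none. Of 32851 promoters of the same length, 56.2% held at least 1 match and 21.2% held 2 or more, counting both strands. A second Lig4 start site had 1 match, Xrcc4 1, and Xrcc5, Nhej1 and Dclre1c none. A match only shows that the letters are present. The Polm and Xrcc6 windows lie inside the gene spans used for the region overlaps below (chr11:5827860-5838832 and chr15:81987833-82040085).

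The first contrast asked how the 9 genes change from the earlier to the later stage within a genotype. In WT, 6 of 9 were higher in pre-B cells and 1 was lower at an adjusted p under 0.05 (edgeR quasi-likelihood test over all genes), where 31% of all genes tested were higher and 33.3% lower. Their median log2 difference was 1.4, against -0.009 over all genes. In het the counts were again 6 higher and 1 lower (32.4% and 35.8% of all genes), and in homo 5 higher and 2 lower (32.7% and 36.4%). The homo counts differ from the WT counts in Polm, which was not called higher, and Prkdc, which was called lower. Polm in homo was, however, called higher under 3 of 16 alternative settings. Library values of 8 of the 9 genes did not overlap between the stages in WT (79.8% of all genes), and those of 6 did not in het (69.5%) and in homo (72.7%).

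**Figure D1:**
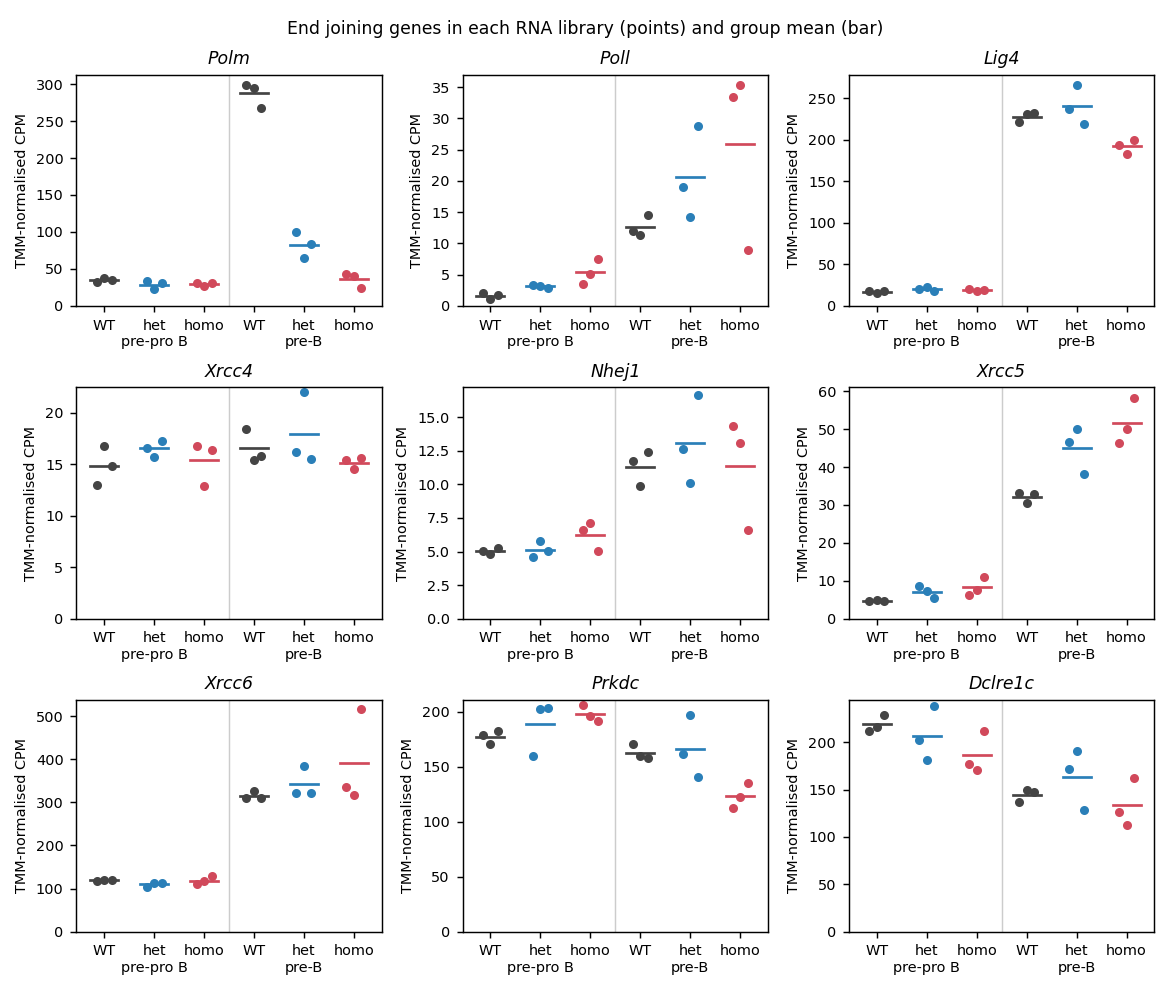
TMM-normalised CPM (y axis, linear from 0, a separate scale per gene) of the 9 end joining genes in the 6 groups of stage and genotype (x axis); each point is 1 library and each bar the mean of 3. Polm in pre-B cells falls from 268 to 299 CPM in WT to 65.4 to 99.6 in het and 24 to 43.1 in homo, while Lig4 is high in all 9 pre-B libraries.

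Polm encodes DNA polymerase mu, an X-family polymerase that fills gaps at broken ends and acts in light chain joining. Among pre-pro B libraries WT held 32.1, 38.1 and 35.2 CPM, het 33.7, 22.3 and 30.9, and homo 30.5, 26.6 and 30.5. Among pre-B libraries WT held 299, 295 and 268 CPM, het 99.6, 65.4 and 83.2, and homo 43.1, 40.9 and 24. The 3 pre-B genotypes did not overlap, with het between WT and homo, and homo pre-B libraries overlapped the pre-pro B libraries. The raw counts behind the homo pre-B values were 272, 265 and 40.

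In WT, Polm was 8.16-fold higher in pre-B than in pre-pro B cells (log2 3.03 ± 0.18 SE, edgeR adjusted p = 7.88e-11). In het the stage difference was 2.9-fold (log2 1.54 ± 0.18, adjusted p = 6.49e-07). In homo it was log2 0.37 ± 0.18 and was not called (edgeR adjusted p = 0.079). It was called under 3 of 16 alternatives: without homo pre-B replicate 3 (log2 0.53, 0.00748), with library size as a covariate (0.61, 0.0125) and with loess scaling (0.40, 0.0493). The order of the group means was WT pre-B (287 ± 16.9 CPM), het pre-B (82.7 ± 17.1), homo pre-B (36 ± 10.4), WT pre-pro B (35.1 ± 3.01), homo pre-pro B (29.2 ± 2.24) and het pre-pro B (29 ± 5.94). From homo pre-B downwards, homo pre-B overlapped WT pre-pro B through its replicate 3 alone, and homo pre-pro B overlapped het pre-pro B.

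Against WT pre-B cells Polm was 3.48-fold lower in het (log2 -1.80 ± 0.20, edgeR adjusted p = 0.000714) and 7.66-fold lower in homo (log2 -2.94 ± 0.21, adjusted p = 2.3e-05). Both comparisons use the same 3 WT libraries. Of 11411 genes tested, 0.71% had a lower log2 difference between homo and WT pre-B cells than Polm. Without homo pre-B replicate 3 the homo difference was log2 -2.77 (adjusted p = 3.11e-06). Homo was 2.2-fold below het (log2 -1.14 ± 0.20, adjusted p = 0.0213); this call was lost without het pre-B replicate 1 (0.0998), het replicate 3 (0.0577) or homo replicate 2 (0.0761). Within the XX pre-B libraries Polm was at 268 to 299 CPM in WT, at 99.6 and 83.2 in het and at 40.9 in homo; the XY libraries, of which WT had none, were at 65.4 in het and at 43.1 and 24 in homo.

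In pre-pro B cells the Polm differences from WT were log2 -0.31 in het (95% interval -0.61 to -0.01) and -0.28 in homo (-0.58 to 0.02), with edgeR adjusted p of 0.232 and 0.155. The difference between the stages in the genotype effect was itself called for Polm, at log2 -1.49 ± 0.25 for het (edgeR adjusted p = 0.00121) and -2.65 ± 0.25 for homo (1.47e-06). Polm was the only 1 of the 9 genes called lower in the het term (3.8% of all genes), and Polm and Prkdc were called lower in the homo term (9.37%).

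Poll encodes DNA polymerase lambda, another X-family polymerase, which fills gaps in end joining and in base excision repair. Among pre-pro B libraries WT held 2.07, 1.17 and 1.71 CPM, het 3.28, 3.22 and 2.95, and homo 3.57, 5.08 and 7.51. These 3 genotypes did not overlap, in the opposite order to Polm in pre-B cells, but the WT values rest on 11, 7 and 11 counts. Among pre-B libraries WT held 12, 11.3 and 14.5 CPM, het 19, 14.3 and 28.8, and homo 33.4, 35.3 and 9.01. The last of these, homo replicate 3, rests on 15 counts and lies below every WT pre-B library, whereas the other homo libraries lie above all WT and het pre-B libraries.

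Poll was higher in pre-B than in pre-pro B cells in WT (7.63-fold, edgeR adjusted p = 2.51e-05), het (6.69-fold, 6.17e-06) and homo (5.26-fold, 7.93e-06). In pre-pro B cells it was 3.25-fold higher in homo than in WT (log2 1.70 ± 0.33, edgeR adjusted p = 0.00609), a call that was lost with library size as a covariate (log2 1.79, adjusted p = 0.079). The het difference there was log2 0.92 ± 0.37 and was not called (adjusted p = 0.189). In pre-B cells the homo difference from WT was log2 1.14 ± 0.39 and was not called (edgeR adjusted p = 0.0806). It was called under 5 of 16 alternatives, among them leaving out homo replicate 3 (log2 1.45, 0.00208). The genotype effect on Poll was not called as different between the stages (homo log2 -0.54, 95% interval -1.82 to 0.74, edgeR adjusted p = 0.618).

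Within a library the ratio of Polm to Poll counts does not depend on scaling. It may still depend on depth, as counts of the abundant gene Actb did not rise in step with depth. They were 1500 in the library of 1888871 gene counts and 2614 in that of 9048055. At the pre-pro B stage WT libraries had 15.5, 32.7 and 20.5 Polm counts per Poll count, het 10.3, 6.93 and 10.5, and homo 8.55, 5.24 and 4.06. At the pre-B stage WT had 24.9, 26.1 and 18.5, het 5.24, 4.57 and 2.89, and homo 1.29, 1.16 and 2.67. The 3 genotypes did not overlap in pre-B cells; in pre-pro B cells WT lay above het and homo, which overlapped. As the ratio combines a fall of Polm with a level of Poll that rests on few counts, it is given without a test.

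**Figure D2:**
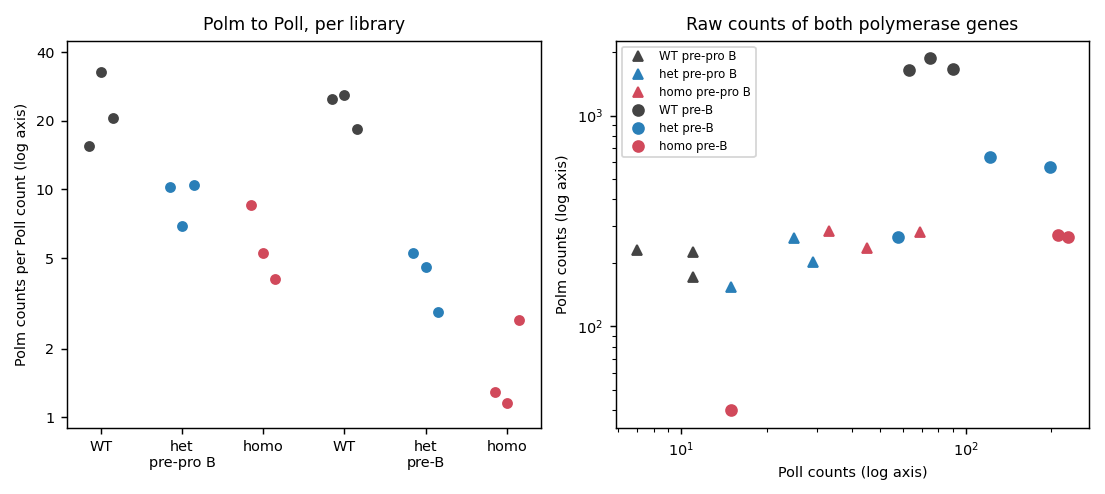
Left, Polm counts per Poll count in each RNA library (y axis, log scale) by stage and genotype; right, raw Polm counts (y axis) against raw Poll counts (x axis), both log scales, 1 point per library. The ratio is 18.5 to 26.1 in WT pre-B cells and 1.16 to 2.67 in homo pre-B cells; the lowest point on the right is homo pre-B replicate 3, with 40 Polm and 15 Poll counts.

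Dntt, listed with the accessory genes, encodes terminal transferase, the X-family polymerase that adds untemplated bases at joints. WT libraries held 288, 272 and 265 CPM at the pre-pro B stage against 102, 82.2 and 93.9 at the pre-B stage, and Dntt fell 2.96-fold between them (log2 -1.56 ± 0.19, edgeR adjusted p = 8.27e-07), the opposite direction to Polm and Poll. Het pre-B libraries held 32.7, 48.6 and 54.6 CPM and homo pre-B libraries 69.1, 125 and 100. Dntt was lower in het than in WT pre-B cells (log2 -1.04 ± 0.24, adjusted p = 0.0278), and homo was higher than het (log2 1.12 ± 0.24, adjusted p = 0.046). Its order of genotypes in pre-B cells thus differed from that of Polm.

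Lig4 encodes DNA ligase IV, which seals the joined ends. The WT libraries held 18, 15.6 and 18.2 CPM at the pre-pro B stage and 221, 231 and 232 at the pre-B stage. It had the largest stage difference of the 9 genes in WT, 13.2-fold (log2 3.72 ± 0.10, edgeR adjusted p = 4.13e-15), and was 11.8-fold higher in het and 10.1-fold higher in homo pre-B cells (adjusted p = 5.35e-15 and 1.4e-14). Of all genes tested, 98.1% had a lower log2 stage difference in WT.

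Het pre-B libraries held 237, 266 and 219 CPM of Lig4, and homo pre-B libraries 194, 183 and 200. The 3 homo libraries lay below all WT and het pre-B libraries, yet the difference from WT, log2 -0.24 ± 0.10 (95% interval -0.47 to -0.02), was not called (edgeR adjusted p = 0.148). It was called under 3 of 16 alternatives: library totals alone (0.0498), library size as a covariate (0.0073) and loess scaling (0.0291). The homo effect was not called as different between the stages (log2 -0.38 ± 0.14, edgeR adjusted p = 0.0809), but it was under 3 of 21 alternatives. In pre-pro B cells het libraries were at 20.1, 22.5 and 18.2 CPM and homo libraries at 20, 18.2 and 18.8, both overlapping WT, and the homo difference was log2 0.13 (95% interval -0.12 to 0.37).

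Xrcc4, the scaffold that binds ligase IV, showed no called difference in any of the 11 comparisons. It ranged from 13 to 18.4 CPM over the WT libraries of both stages, and the 6 groups overlapped along their whole order, from WT pre-pro B cells at 14.9 to het pre-B cells at 17.9 CPM. Its WT stage difference was log2 0.15 (95% interval -0.17 to 0.48), unlike that of Lig4, whose interval was 3.50 to 3.94.

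Nhej1, which encodes the XRCC4-like factor XLF, had 5.07, 4.83 and 5.29 CPM in the WT pre-pro B libraries, against 11.7, 9.85 and 12.4 in the WT pre-B libraries. It was 2.23-fold higher in pre-B cells in WT (log2 1.16 ± 0.24, edgeR adjusted p = 0.00033), 2.55-fold in het and 1.97-fold in homo (4.57e-05 and 0.000868). No genotype difference was called. Homo pre-B libraries held 14.3, 13.1 and 6.61 CPM, the last from 11 counts in replicate 3, which lay below every WT pre-B library.

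Xrcc5 encodes Ku80, which with Ku70 forms the ring that slides onto broken ends. At the pre-pro B stage WT libraries had 4.69, 4.99 and 4.67 CPM, het 8.75, 7.21 and 5.42, and homo 6.28, 7.67 and 11.1. At the pre-B stage WT had 33.1, 30.5 and 32.9 CPM, het 46.6, 50.1 and 38.2, and homo 46.4, 50 and 58.3. In both stages every het and homo library lay above every WT library, and het and homo overlapped.

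Xrcc5 was 6.69-fold higher in pre-B than in pre-pro B cells in WT (log2 2.74 ± 0.21, edgeR adjusted p = 2.25e-09), and 6.43-fold and 6.07-fold higher in het and homo. In homo pre-B cells it was 1.59-fold higher than in WT (log2 0.67 ± 0.15, edgeR adjusted p = 0.0111); the call was lost without WT replicate 2 (0.0601) and held without homo replicate 3 (log2 0.58, 0.0138). In homo pre-pro B cells it was 1.73-fold higher (log2 0.79 ± 0.25, adjusted p = 0.0422), from 25 to 30 counts in the WT libraries; this call was lost under 9 of 16 alternatives, with adjusted p of 0.025 to 0.197. Those include leaving out WT replicate 1 (0.121), 2 (0.106) or 3 (0.106) or homo replicate 2 (0.0781) or 3 (0.156), library size as a covariate (0.114) and a sex term (0.197). The het differences, log2 0.53 ± 0.26 in pre-pro B and 0.47 ± 0.14 in pre-B cells, were not called (edgeR adjusted p = 0.283 and 0.091). The one in pre-B cells was called under 3 of 16 alternatives, among them DESeq2 (adjusted p = 0.0447).

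Xrcc6, which encodes Ku70, had 118, 120 and 120 CPM in the WT pre-pro B libraries, against 310, 327 and 310 in the WT pre-B libraries, 2.64-fold higher (log2 1.40 ± 0.14, edgeR adjusted p = 9.3e-08). It was 3.1-fold higher in het and 3.26-fold higher in homo pre-B cells. No genotype difference was called. Homo pre-B libraries held 336, 318 and 516 CPM; the difference from WT was log2 0.30 (95% interval -0.10 to 0.70) with replicate 3, the highest, and 0.05 without it. Its locus overlaps Desi1, and as no source used here states whether counting used strand, reads of both genes may not have been told apart.

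Prkdc encodes the catalytic subunit of DNA-dependent protein kinase (DNA-PKcs). The pre-pro B libraries had 179, 171 and 183 CPM for WT, 160, 203 and 204 for het, and 206, 196 and 192 for homo. The pre-B libraries had 171, 160 and 157.8 CPM for WT, 162, 197 and 141 for het, and 113, 123 and 135 for homo. Homo libraries were above WT in pre-pro B cells and below WT and het in pre-B cells, without overlap.

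The stage difference of Prkdc was not called in WT (log2 -0.13 ± 0.11, edgeR adjusted p = 0.34) or in het (-0.19 ± 0.11, 0.146), and it fell 1.61-fold in homo (log2 -0.69 ± 0.12, adjusted p = 5.24e-05). The test of the difference between the homo and WT stage effects gave log2 -0.56 ± 0.16 (edgeR adjusted p = 0.0275). This call was lost without WT pre-pro B replicate 1 (0.0555) or 2 (0.0682), homo pre-pro B replicate 1 (0.0597), WT pre-B replicate 1 (0.0704) or homo pre-B replicate 1 (0.0637). Within pre-B cells alone the homo difference from WT was log2 -0.40 ± 0.13 and not called (edgeR adjusted p = 0.0682). It was called under 7 of 16 alternatives, among them leaving out homo replicate 3 (log2 -0.47, 0.0296).

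Dclre1c encodes Artemis, the nuclease that opens the hairpins left by RAG cutting. It was the 1 gene of the 9 called lower in pre-B than in pre-pro B cells of WT. It fell from 212, 216 and 229 to 137, 150 and 147 CPM (log2 -0.60 ± 0.15, edgeR adjusted p = 0.00165). It also fell in homo (-0.50 ± 0.15, 0.00619) and in het (-0.34 ± 0.15, 0.0463), where the libraries overlapped. The het call was lost under 6 of 16 alternatives, among them leaving out het pre-pro B replicate 1 (0.068) or 3 (0.184) or het pre-B replicate 1 (0.0597) or 3 (0.236). No genotype difference was called, with pre-B libraries of het at 128 to 191 and of homo at 113 to 162 CPM. The locus overlaps Suv39h2, with the same limit on strand.

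**Figure D3:**
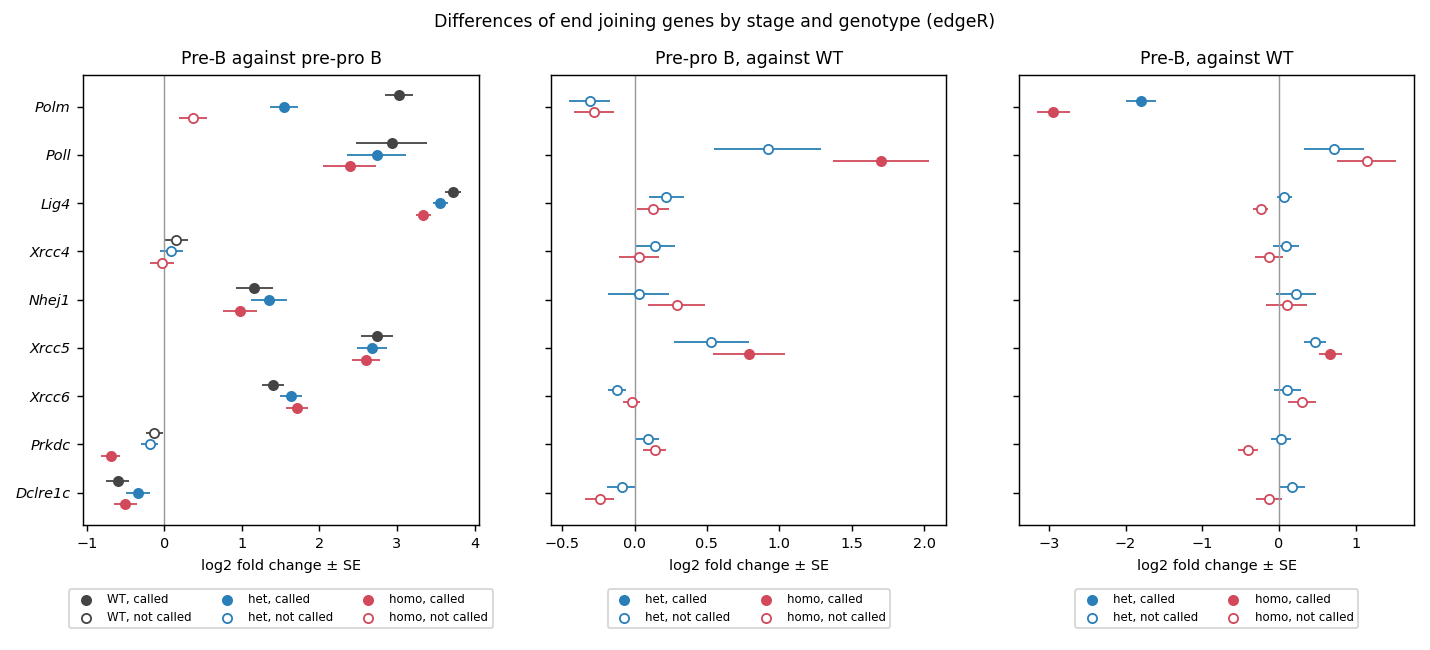
Log2 fold change (x axis) ± SE from edgeR for each end joining gene (y axis), for pre-B against pre-pro B cells (left) and for het and homo against WT in pre-pro B cells (middle) and in pre-B cells (right); filled points were called at an adjusted p under 0.05 and open points were not. Lig4 has the largest stage difference (3.72 in WT), and Polm in pre-B cells the largest genotype differences (-1.80 in het, -2.94 in homo).

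The genotype calls for the 9 genes follow, beside the share of all genes called. In pre-B cells 1 of 9 was called in het (Polm, lower, as were 3.38% of all genes) and 2 of 9 in homo (Polm lower and Xrcc5 higher, with 8.45% of all genes lower and 7.42% higher). The median log2 difference was 0.11 in het and -0.13 in homo, against 0.005 and 0.018 over all genes. Homo against het pre-B cells gave 1 call, Polm, lower (1.09% of all genes). In homo pre-pro B cells Poll and Xrcc5 were called higher (12% of all genes) and none lower (1263 of 12188 genes), with a median of 0.13 against 0.01. In het pre-pro B cells edgeR called none of the 9 (0.558% of all genes, 68 genes; 2505 at an unadjusted p under 0.05, and 471 by DESeq2). Homo against het pre-pro B cells also gave none (0.0164%, 2 genes; 1470 unadjusted, and 48 by DESeq2).

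Library values of 4 of the 9 genes did not overlap between homo and WT pre-B cells (42.6% of all genes), namely Polm, Lig4, Xrcc5 and Prkdc. The corresponding counts were 2 for het in pre-B cells (33.3%), 5 for homo in pre-pro B cells (46.5%) and 3 for het in pre-pro B cells (21.7%), and homo against het gave 3 in pre-B (15.5%) and 1 in pre-pro B cells (17.1%). Summed markers of other cells differed between genotypes, some higher and some lower in homo. The 10 NK and innate lymphoid markers summed to 116 to 121 CPM in WT, 188 to 272 in het and 250 to 388 in homo pre-pro B cells, and to 2.88 to 4.12, 8.73 to 13.1 and 24.2 to 28.8 in pre-B cells, where Gzma, Gzmb, Ncr1, Klrk1 and Eomes were at 0 in WT, Gzmb in het and Tbx21 in homo. In homo pre-B cells Prf1 (10.9 ± 2.99 CPM) and Klrb1c (10.1 ± 1.4) made up most of that sum. The 10 myeloid markers summed to 95.3 to 103 CPM in WT, 94.3 to 187 in het and 207 to 279 in homo pre-pro B cells. Their sums at the later stage were 55.8 to 58, 84.3 to 93.8 and 117 to 152, nearly all of it Itgam (52.5 ± 2.07 in WT, 87.8 ± 5.51 in het, 122 ± 21.7 in homo); Elane, Ctsg and Cebpa were at 0 in WT, Elane, Prtn3 and Ctsg in het, and Ctsg in homo. The 10 plasmacytoid dendritic markers, none at 0 in any group, had sums of 4870 to 7280 CPM in het and 4680 to 4900 in homo pre-pro B cells, the latter below WT, and of 1000 to 1130 and 951 to 1040 in pre-B cells. In homo against WT, Spib, Ccr9 and Pacsin1 were called lower in pre-pro B cells and none was higher. In pre-B cells Cox6a2 and Flt3 were called higher and Spib lower. Over all genes 1467 were higher and 1263 lower of 12188 in pre-pro B cells, and 847 and 964 of 11411 in pre-B cells. The 9 T lineage markers in the table summed to 696 to 779 CPM in WT, 588 to 799 in het and 551 to 583 in homo pre-pro B cells. Of the 8 tested there in homo against WT, Zap70 and Cd2 were called higher, and Cd4 and Cd8a lower. At the later stage the 9 markers summed to 143 to 152, 120 to 128 and 85.3 to 116, most of it Cd2 and Lck. Cd3e, Cd3g and Cd8a were at 0 in WT, Cd3g in het and Cd8a in homo. The 10 B lineage markers summed to 3110 to 3360 CPM in WT, 3160 to 3960 in het and 3190 to 5370 in homo pre-B cells. The part of other cells in the genotype differences was not tested.

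Other repair genes, from lists set by pathway, gave the setting. In WT, where 31% of all genes were higher and 33.3% lower in pre-B cells, all 4 recombinase genes were higher, led by Rag2 (13.6-fold) and Rag1 (9.42-fold), which encode the recombinase that cuts the antibody genes. Of 7 alternative end joining genes 6 were higher, led by Polq, the polymerase of that route (5.97-fold), of 14 homologous recombination genes 12 were higher and 1 lower, led by Brca1 (5.22-fold), and of 16 cell cycle genes 16 were higher. Of 9 accessory end joining genes 3 were higher and 2 lower, led by Aplf (3.74-fold), and of 16 break signalling genes 10 were higher and 2 lower, led by the checkpoint kinase gene Chek2 (2.81-fold).

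In homo against WT pre-pro B cells, where 12% of all genes were higher, the cell cycle list had 14 of 16 genes called higher (Ccnb1 2.84-fold), homologous recombination 10 of 14 (Bard1 2.27-fold), alternative end joining 5 of 7 (Polq 2.49-fold), break signalling 5 of 16 (H2afx 1.46-fold), accessory genes 2 of 9 (Aplf 1.46-fold) and recombinase none of 4, with none lower in any of them. Over all genes 1467 were higher and 1263 lower there, and with library totals alone 2016 and 755. With library size as a covariate 1 homologous recombination and 1 alternative end joining gene were called, none of the other lists, and 213 genes in all instead of 2730. In homo against WT pre-B cells (7.42% of all genes higher and 8.45% lower) alternative end joining had 2 of 7 higher (Parp1 1.33-fold, Lig1 1.31-fold), homologous recombination 3 of 14 (Blm 1.56-fold, Bard1 1.52-fold, Rad51c 1.35-fold), cell cycle 3 of 16 and break signalling 1 of 16 (Fam35a, listed as Shld2, 1.53-fold). With library size as a covariate there, 4, 4, 10 and 3 genes of these lists were higher, of 3456 genes called in place of 1811. Recombinase again had none in the main test, and the accessory list had 1 of 9 lower, 3110062M04Rik, listed as Cyren, which encodes a regulator of Ku (log2 -1.03 ± 0.26, edgeR adjusted p = 0.0215). In het pre-B cells Dntt was the 1 accessory gene called, and no recombinase, break signalling, alternative end joining or homologous recombination gene was.

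Genes with the pattern most like that of Polm, by Pearson correlation of log2 CPM over the 18 libraries, were Fmn2 (r = 0.971), Myo1c (0.954), Olfml2b (0.952), Nr6a1 (0.949) and 4930515G16Rik (0.946). Fmn2 went from 0.957 CPM in WT pre-pro B cells to 111 in WT, 13.3 in het and 1.08 in homo pre-B cells, and Nr6a1 from 3.86 to 17.5, 8.38 and 4.04. Those most like Lig4 were Cecr2 (0.997), and Klhl14, Rev1, Cpm and Scd1 (each 0.996). Cecr2 had 45.3 CPM in WT pre-pro B cells, against 1060 (WT), 987 (het) and 848 (homo) in pre-B cells. These correlations describe 18 libraries that share 6 groups, and for Lig4 they rest mostly on the distance between the stages.

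The binding regions asked where Ikaros (the Ikzf1 product, of the same family) and Aiolos were called near these genes. A region lay within 10 kb of 1 of the 9 genes in the Ikaros list of WT pre-B cells (11.2% of 23392 genes), 3 in homo pre-B cells (23.8%), 1 in WT thymocytes (11.6%) and 6 in homo thymocytes (29.9%). The 4 Aiolos lists held none near the 9 genes (0.889% and 0.047% of genes in WT and homo pre-B cells, 0.0513% and 0.466% in thymocytes). The homo Ikaros lists were longer, with 8609 against 3683 regions in pre-B cells and 8221 against 3572 in thymocytes, and with 1 library each the difference between genotypes has no replicate check.

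At Polm a region was called in both homo lists and in neither WT list. In homo pre-B cells it lay at chr11:5837446-5837771 on mm10, within the gene and 245 to 570 bases after the start site whose promoter is printed above, with a fold of 3.52 over the background and a −log10 q of 2.33 as the authors gave them. It ranked 7947 of 8609 by q in its list. In homo thymocytes it spanned chr11:5837347-5837852 with a fold of 4.91 and a −log10 q of 6.37. The printed Polm matches lie 168 and 149 bases before the start site, outside both regions. Absence from a list says only that no region passed the authors' threshold there.

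At Lig4 a region at chr8:9977617-9978109 in homo thymocytes (fold 6.33, −log10 q 11.75) covered all 250 printed bases and also overlapped the neighbouring gene Abhd13. No Lig4 region was called in pre-B cells. At Xrcc6 a region about 11.6 kb after the start site was in all 4 Ikaros lists, with a fold of 5.53 in WT pre-B cells (chr15:82028007-82028345), 6.07 in homo pre-B cells, 6.44 in WT thymocytes and 9.9 in homo thymocytes. A second Xrcc6 region at the start site was in both thymocyte lists (fold 4.67 in WT, 4.15 in homo) and covered 172 and 160 of the printed bases, on ground shared with Desi1.

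**Figure D4:**
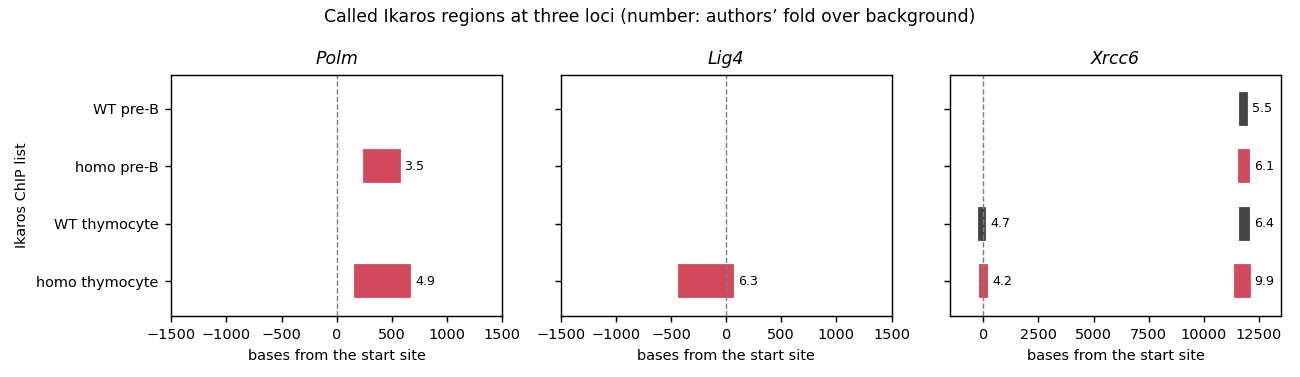
Ikaros regions called near Polm, Lig4 and Xrcc6, by distance in bases from the start site along the gene (x axis, dashed line at 0) in each of the 4 Ikaros lists (y axis); boxes are drawn to scale in each panel and the number beside each is the authors' fold over background. Polm and Lig4 have boxes only in homo lists within the span drawn, while the Xrcc6 region about 11.6 kb in is in all 4.

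The remaining regions within 10 kb were in homo lists alone. Xrcc4 had a region inside the gene in homo pre-B cells (chr13:90032742-90033015, fold 3.61). In homo thymocytes Prkdc had one inside the gene (chr16:15637569-15637927, fold 3.74), Dclre1c one that covered 152 of the 250 bases before its start site (chr2:3423847-3424032, fold 3.52) and another inside the gene (chr2:3431044-3431235, fold 3.53), and Poll one 6.98 kb outside the gene (fold 3.41). Xrcc5 and Nhej1 had none within 10 kb in any list.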

How the data were processed

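RNA was measured in 18 libraries and Ikaros or Aiolos binding in 8. The deposited RNA tables hold raw read counts per gene symbol. Their 5 entries that name no gene entered neither library sizes nor tests; 29.8% to 40.1% of a library's total fell in no gene. MACS2 2.1.1, STAR 2.7.0, HISAT2 2.1.0 and mm10 as the genome are listed, without roles, per the submitters' processing notes. No source used here names the counting program or its use of strand. The deposited peak lists hold, per region, the authors' score, their fold (a ratio of signal to background), and the −log10 of p and of q; their thresholds are not given in the sources used here.

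The count test was edgeR 4.0.16 in R 4.3.3 (filterByExpr, TMM, robust quasi-likelihood). Genotypes were compared in a fit of the 9 libraries of a stage, stages and interactions in a fit of all 18. P-values were adjusted by Benjamini-Hochberg over every gene tested (12188 at the pre-pro B stage, 11411 at the pre-B stage, 12440 in the joint fit), and genes under 0.05 were called. CPM are TMM-scaled over 18 libraries and not corrected for gene length, so levels are compared within a gene. Intervals are 95% under the fitted spread. Gene positions and promoters are from RefSeq GRCm38.p6, the assembly of mm10, and 7 of the 9 genes had a promoter entry. The members and the gene lists were chosen with earlier results of these data known. All 9 genes are named, at most 3 called genes of each other list per comparison, and the 5 genes most correlated with Polm and with Lig4. Paxx, Shld3, Ighm and Trac were not matched. Alternatives were other scalings and filters, DESeq2 1.42.0, covariates, a replicate block and leaving out each library; loess scaling, and the pathway list counts with library size as a covariate, were added after seeing the data.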

Additional observations from a re-analysis of the deposited data

Results flagged for a closer look

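The genotype effect differed between the stages, by a test of the interaction, for 2 of the 9 end joining genes. For Polm the effect in pre-B cells was lower than that in pre-pro B cells by log2 -1.49 ± 0.25 for het and -2.65 ± 0.25 for homo (edgeR adjusted p = 0.00121 and 1.47e-06), and both calls held under all 21 alternatives run, with log2 values of -1.67 to -1.35 and -2.78 to -2.42. For Prkdc the homo difference was log2 -0.56 ± 0.16 (edgeR adjusted p = 0.0275), from 192 to 206 CPM in homo against 171 to 183 in WT pre-pro B cells and 113 to 135 against 157.8 to 171 in pre-B cells; over the 21 alternatives its adjusted p ran from 0.00647 to 0.0704.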

How the results depend on the processing

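Of 99 results for single end joining genes, tried under 1674 alternative values in all, no called value changed sign, 27 alternatives lost a call, 38 gained one and 1609 left it; 51 values of uncalled results changed sign, in 24 results. The calls of Polm in pre-B cells against WT held under all 16 alternatives, at log2 -1.95 to -1.66 in het and -3.07 to -2.71 in homo. The number of the 9 genes called moved as follows, and the cause was not tested. In homo against WT pre-B cells it was 2 in the main test, where 1811 of 11411 genes were called. It was 4 with library totals alone (1690 over all genes), 5 with library size as a covariate (3456) and 4 with a sex term (1381). With loess scaling it was 5 (1967), in the fit of all 18 libraries 4 (2940 of 12440) and with the replicate block 1 (1125). Leaving out 1 library gave 1 to 4 (1055 to 2097). In homo against WT pre-pro B cells it was 2 in the main test (2730 over all genes) and 0 with library size (213). It was 1 with a sex term (605), 1 with loess scaling (2299) and 1 to 2 leaving out 1 library (1112 to 2059). In het against WT pre-B cells it was 1 in the main test (705 over all genes) and 3 with library size (3005). It was 2 with DESeq2 (1079) and 1 to 2 leaving out 1 library (336 to 756). In homo against het pre-B cells it was 1 in the main test (216 over all genes) and 5 with library size (1604). It was 3 in the fit of all 18 (662), 0 with the replicate block (71) and 0 to 1 leaving out 1 library (52 to 374). Leaving out 1 library gave 0 to 1 in het against WT pre-pro B cells (0 in the main test). The 1 was Prkdc without het replicate 1, where 1901 genes were called in all, against 68 in the main test. In the homo interaction (2 in the main test, 1809 over all genes) leaving out 1 library gave 1 to 2 (1349 to 2155).

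The counts over all genes behind the percentages also moved: 68 in het against WT pre-pro B cells ran from 0 to 1901, 2730 in homo against WT pre-pro B cells from 213 to 2771, 2 in homo against het pre-pro B cells from 0 to 223, 705 in het against WT pre-B cells from 336 to 3005, 1811 in homo against WT pre-B cells from 1055 to 3456, 216 in homo against het pre-B cells from 52 to 1604, and 703 in the het interaction from 469 to 1055. Pairing was examined on deviations, the log2 CPM of each gene minus the mean of its group. In these, same-numbered libraries correlated at -0.516 to 0.238 over 45 pairs, 7 of them over 0.1. The deviations of a group cancel, so these correlations depend on each other. The numbers were not taken to pair libraries by the rule used (every pair over 0.1). Within a genotype, however, 8 of the 9 pairs between stages were positive (-0.047 to 0.238). Of the 18 libraries, 14 correlated best, in these deviations, with their own number in the other stage of their genotype. The XY libraries bore the same numbers in both stages (het 2, homo 1 and 3). Whether mice were shared across the stages cannot be settled from these data, and the main stage and interaction tests did not pair libraries. The replicate block treated each number as the same across all genotypes. It therefore did not model a mouse shared between the stages of 1 genotype. The block ended the calls of Xrcc5 in homo pre-pro B (edgeR adjusted p = 0.061) and pre-B cells (0.0502). It also ended those of Polm in homo against het pre-B cells (0.0579) and Dclre1c between stages in het (0.0645). The block added Dclre1c in homo pre-pro B cells (0.0195). With regions of a −log10 q of at least 10, fewer of the 9 genes had an Ikaros region within 10 kb. They were 0 in WT pre-B cells (5.28% of all genes), 1 in homo pre-B cells (9.05%) and 2 in homo thymocytes (7.02%). With all regions and 50 kb on either side, there were 2 in WT thymocytes (24.5%). Depth limits most clearly Poll in WT pre-pro B cells (7 to 11 counts) and homo pre-B replicate 3. As Actb counts did not rise in step with depth, CPM of other abundant genes may also move with it in any library.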
